A study of Mus musculus with 20 samples.

Results

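*Zbtb20*, *Emx2*, *Pou3f1*, *Nr3c2*, *Wfs1*, *Man1a*, *Fibcd1* and *Mpped1* are genes that are commonly used to mark the pyramidal cell fields or the identity of the hippocampus. They were taken from the counts by gene symbol, which found all 8 among the 47729 genes of the series, each with a single row. RNA was sequenced from the cortex and the hippocampus of 5 WT mice and 5 Ube3aOE mice of the C57Bl/6J strain at postnatal day 7 (P7), so that the 20 libraries came from 10 mice, numbered 1 to 5 (WT) and 6 to 10 (Ube3aOE). Ube3aOE mice carry extra copies of *Ube3a*, which encodes a ubiquitin ligase, on a bacterial artificial chromosome transgene with the gene's own flanking sequence, so the excess is not limited to 1 cell type. The sequenced mice were of the Ube3a+2 genotype, with 2 extra copies, and most of the study was carried out in transgene line E. The labels name the tissues as cortex and hippocampus, without an area or a field. Each library had 14191093 to 16752326 reads on genes. All 8 genes passed the filter on low counts in every comparison, and their lowest count in a library was 80 reads (*Fibcd1* in cortex).

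The hippocampus proper is an ordered strip of pyramidal cell fields, CA1, CA2 and CA3, joined to the granule cells of the dentate gyrus and to the subiculum. Field identity is set by transcription factors that act in the medial wall of the embryonic cortex and, later, in the young neurons themselves. Of the 8 genes, 4 encode transcription factors or a nuclear receptor: *Emx2* is a homeobox gene needed for growth of the hippocampal primordium, *Zbtb20* encodes a zinc finger repressor needed for CA1 identity, *Pou3f1* encodes a POU factor of CA1 and of deep neocortical neurons, and *Nr3c2* encodes the mineralocorticoid receptor. The other 4 encode cellular proteins: *Wfs1* wolframin, a membrane protein of the endoplasmic reticulum, *Man1a* a Golgi mannosidase that trims N-glycans, *Fibcd1* a transmembrane receptor with a fibrinogen-like domain, and *Mpped1* a protein with a metallophosphoesterase domain.

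The genes lie on 8 different chromosomes of GRCm38 by GENCODE M21. These are chr16:42875881-43642602 for *Zbtb20*, chr19:59458372-59465357 for *Emx2*, chr4:124656807-124660655 for *Pou3f1*, chr8:76899442-77245012 for *Nr3c2*, chr5:36966104-36989205 for *Wfs1*, chr10:53904785-54076609 for *Man1a*, chr2:31813290-31846005 for *Fibcd1* and chr15:83779467-83858494 for *Mpped1*. *Emx2* overlaps the antisense gene *Emx2os* on the opposite strand. The library kit keeps the strand, but the strand setting of the counting is not given in the sources used here, so reads of this pair may not have been told apart.

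The promoter table (RefSeq, GRCm38.p6) matched 7 of the 8 genes, with 8 windows of 250 bases before a start site, and *Pou3f1* was not among them. Only bases outside GENCODE exons are printed, for the 3 genes with the largest positive difference between regions and for *Mpped1*, the gene with the opposite difference. Capitals mark the CCAAT box (CCAAT). They also mark the GC box, which reads GGGCGG. The remaining capitals mark the half-site of the glucocorticoid response element, which reads TGTTCT, and each was searched on either strand.
Fibcd1, minus strand, chr2:31846006-31846255: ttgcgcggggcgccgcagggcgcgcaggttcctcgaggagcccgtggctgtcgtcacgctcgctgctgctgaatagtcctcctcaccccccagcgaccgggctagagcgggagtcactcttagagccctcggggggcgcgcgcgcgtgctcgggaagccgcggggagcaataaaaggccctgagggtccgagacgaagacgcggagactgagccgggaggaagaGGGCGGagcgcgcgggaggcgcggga
Nr3c2, plus strand, chr8:76902080-76902287: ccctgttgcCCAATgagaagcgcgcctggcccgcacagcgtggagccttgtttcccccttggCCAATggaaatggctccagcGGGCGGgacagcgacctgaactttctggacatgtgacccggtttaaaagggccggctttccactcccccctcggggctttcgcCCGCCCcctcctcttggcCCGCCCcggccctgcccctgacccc
Zbtb20, plus strand, chr16:43247034-43247283: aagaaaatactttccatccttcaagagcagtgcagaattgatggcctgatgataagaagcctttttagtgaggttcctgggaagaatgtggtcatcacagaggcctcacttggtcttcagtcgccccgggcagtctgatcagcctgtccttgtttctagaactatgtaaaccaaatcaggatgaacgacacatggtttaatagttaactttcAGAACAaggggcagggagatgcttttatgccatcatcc
Mpped1, plus strand, chr15:83779773-83779981: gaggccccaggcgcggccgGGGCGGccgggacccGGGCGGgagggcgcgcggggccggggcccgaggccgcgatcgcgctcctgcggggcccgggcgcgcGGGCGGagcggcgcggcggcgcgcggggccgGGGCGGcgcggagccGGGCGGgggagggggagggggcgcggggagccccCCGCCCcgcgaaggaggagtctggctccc

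The whole windows of 250 bases differed in base composition. The GC content was 71.6% in *Fibcd1*, 68.4% in *Nr3c2*, 88.8% in the first window of *Mpped1* and 46.8% in its second, and 44.8% in *Zbtb20*, beside a median of 52.4% over the 32851 windows of the table. The window of *Zbtb20* held 3 CpG, the first of *Mpped1* 47 and its second 2, against a median of 6. The windows of *Zbtb20*, *Nr3c2*, *Man1a* and *Mpped1* lie within the genes, since GENCODE places other starts of these genes upstream. That of *Wfs1* lies partly within its gene and that of *Fibcd1* just outside it. The window of *Emx2* lies wholly within GENCODE exons.

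Motifs were counted on both strands, overlaps allowed. In the whole window *Nr3c2* held 3 CCAAT boxes, and *Emx2*, *Man1a* and *Wfs1* held 1 each, while 33.8% of all windows held at least 1. The GC box was present in every matched gene except *Zbtb20*, with 7 in the first window of *Mpped1*, and in 32.7% of all windows. The half-site stood in *Zbtb20* alone, 1 copy, and in 16.1% of all windows. An E-box (CANNTG) was found in *Nr3c2*, *Wfs1*, *Zbtb20* and the second window of *Mpped1*, and in 66.2% of all windows. No window of these genes held the letters TATAAA (12.4% of all windows) or TAATTA (4.84%). These matches describe the letters of the windows only.

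Before the levels, the labels and the dissections were checked. *Ube3a* was at 57.3 to 77.0 CPM (read counts scaled to a common library size, with TMM factors) in WT hippocampus and 142 to 194 CPM in Ube3aOE hippocampus, and at 53.5 to 69.7 and 129 to 182 CPM in cortex, so that the genotypes did not overlap in either tissue. *Prox1*, the defining factor of dentate granule cells, was at 67.8 to 183 CPM in hippocampus and 10.3 to 25.1 CPM in cortex. The sex-linked counts of 2 mice, or 4 libraries, went against the labelled sex.

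In cortex, the libraries of Ube3aOE mice 8 and 9 stood apart in several of the gene lists searched. Both exceeded all 8 other cortex libraries in 8 of 17 hippocampal field markers, among them *Prox1* (25.1 and 23.5 CPM against at most 14.2) and *Nts*, a subicular neuropeptide (25.5 and 29.3 CPM against at most 4.97). They also exceeded the others in 5 of 5 Cajal-Retzius genes, with summed levels of 189 and 199 CPM against 90.7 to 154 CPM in the other 8 cortex libraries. *Reln*, which cortical interneurons also express, made up most of these sums, at 178 to 191 CPM in the 2 libraries and 88.3 to 150 CPM in the others. The remaining Cajal-Retzius genes reached at most 6.44 CPM (*Trp73*). Mice 8 and 9 lay below the others in 4 of 11 neocortical factors, *Cux2* included. Of the neocortical factors, 1 was above the others (*Tle4*), as were the astrocyte genes *Gfap* and *Slc1a3*. So were 3 of 7 choroid plexus genes (*Folr1*, *Aqp1* and *Kcnj13*) and 2 of 6 thalamus genes (*Slc17a6* and *Lef1*). The astrocyte gene *Aldh1l1* was below. In 0 of 7 striatum genes were both libraries above or both below. In *Adora2a*, *Drd2* and *Six3* 1 of the 2 libraries was above the other 8, and in *Drd1*, *Rgs9* and *Ppp1r1b* 1 was below them. The share of all genes in which both libraries lay above or below the other 8 was not counted. The differences of the 8 genes between regions and between genotypes in cortex are given with and without these 2 libraries.

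In hippocampus, libraries differed in the level of markers of neighbouring regions, some of which (*Prkcd*, *Slc17a6*, *Rora* and *Rgs9*) were expressed in every library of both tissues. The 6 thalamus markers summed to 133 to 144 CPM in mice 1, 3, 5 and 6, and to 502 CPM in mouse 4, 609 in mouse 7, 223 in mouse 8 and 1188 in mouse 10, where 5 of 6 markers exceeded those 4 libraries. The 7 striatum markers summed to 527 CPM in mouse 9, all 7 above the 4 libraries, which held 42.6 to 49.5 CPM. The 7 choroid plexus markers summed to 1964 CPM in mouse 7 and 349 in mouse 9, again all 7 above the 4 libraries, at 11.5 to 32.6 CPM. In WT mouse 2, 4 of 6 neocortical markers exceeded the 4 libraries, with a summed level of 725 CPM against 532 to 608 CPM. No thalamus or striatum marker was at 0 in these 6 libraries, and *Kcnj13*, a choroid plexus gene, was at 0 in mice 2 and 4. Mice 1, 3, 5 and 6 were taken as the reference after the values were seen, as those with the fewest markers of other regions. That other libraries exceed them in these same markers is thus no separate check. The share of all genes above the 4 libraries was not counted.

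The first comparison asked how the 2 regions differ. By edgeR's quasi-likelihood test over the 20 libraries, with Benjamini-Hochberg adjustment over 15661 genes and a threshold of 0.05, 6 of the 8 genes were higher in hippocampus (*Fibcd1*, *Nr3c2*, *Zbtb20*, *Emx2*, *Wfs1* and *Man1a*), *Mpped1* was lower, and *Pou3f1* did not pass. Of all genes tested, 25.3% were higher and 25.6% lower in hippocampus, 50.9% in either direction, so a call as such was common in this comparison. The median log2 difference was 1.40 over the 8 genes and -0.01 over all genes. Within WT the same counts of 6 higher, 1 lower and 1 not called were found where 37.1% of all genes were called, and within Ube3aOE likewise where 33.2% were called. In bulk tissue, fewer cells of a type and less RNA per cell cannot be told apart.

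**Figure D1:**
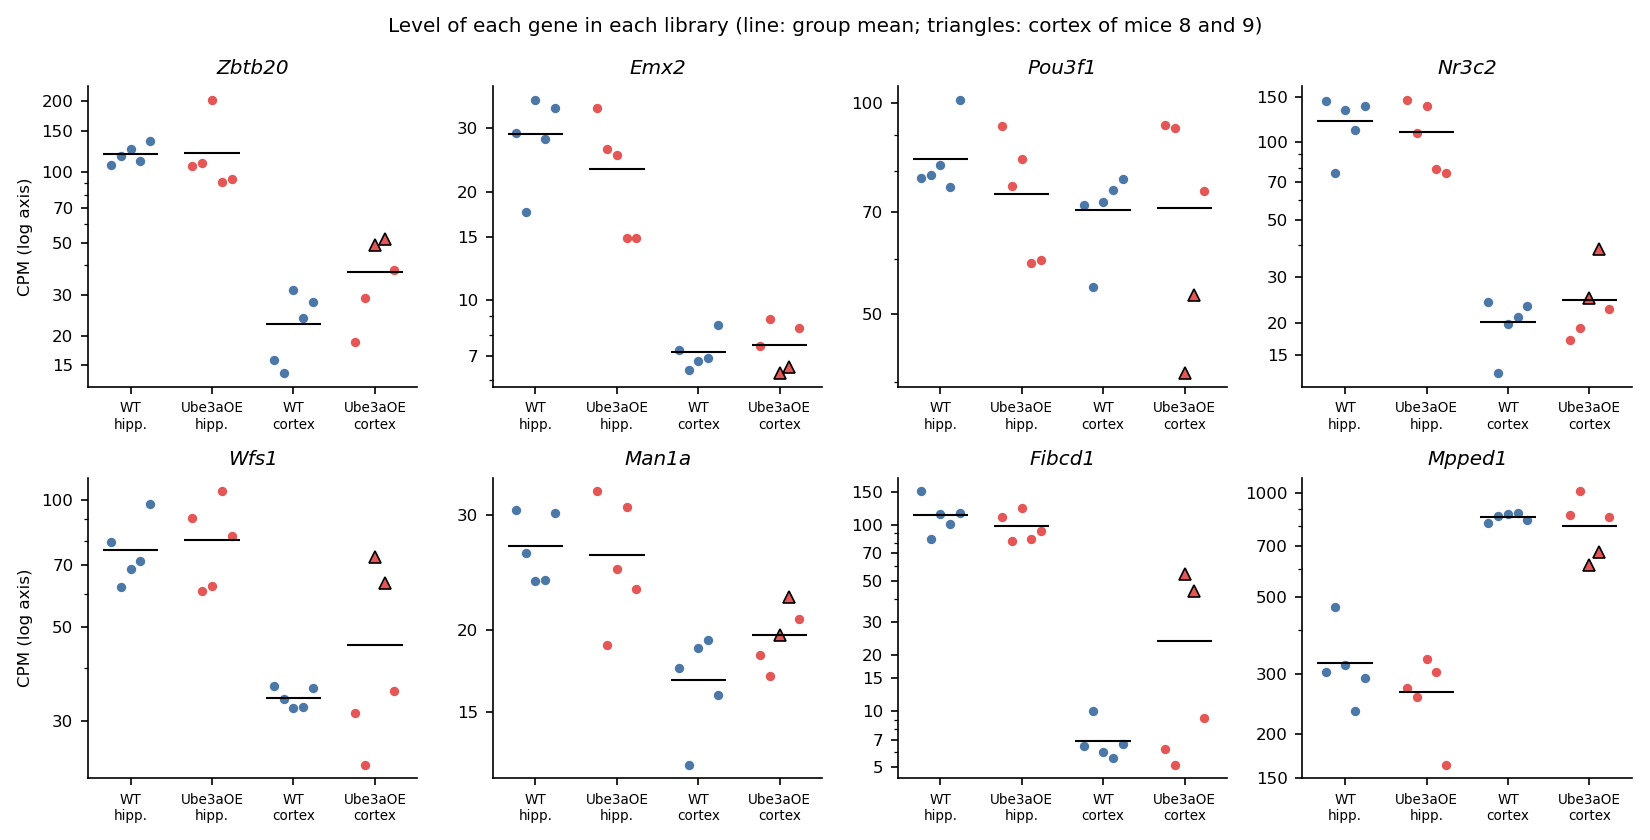
CPM of each gene (log axis) in the 20 libraries, by genotype and region, with blue points for WT, red points for Ube3aOE, lines at group means and triangles for the cortex of mice 8 and 9. The regions do not overlap in *Zbtb20*, *Emx2*, *Nr3c2*, *Fibcd1* and *Mpped1*, and the triangles reach 44.0 and 54.6 CPM in *Fibcd1*, where the other cortex libraries stay at or below 9.99 CPM. The share of all genes whose regions do not overlap was not counted, and 50.9% of all genes tested were called between regions.

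Among the transcription factors, *Emx2* was low in cortex and varied little there. Its level in cortex was 7.28, 6.39, 6.78, 6.91 and 8.51 CPM in WT mice 1 to 5 and 7.46, 8.83, 6.26, 6.52 and 8.36 CPM in Ube3aOE mice 6 to 10. In hippocampus it was 29.1, 17.6, 36.0, 28.0 and 34.1 CPM in WT and 34.1, 26.2, 25.3, 14.9 and 14.8 CPM in Ube3aOE mice. The regions did not overlap, and mice 2, 9 and 10 were the lowest in hippocampus. Between regions *Emx2* differed by 1.81 on the log2 scale (SE 0.15, adjusted p = 1.72e-08 by edgeR), a 3.50-fold higher level in hippocampus, with all 10 mice in this direction. The cortex library of mouse 8 was the lowest for this gene and that of mouse 9 lay within the others. Without both libraries the difference was 1.74. The antisense gene *Emx2os* differed by 2.096 (SE 0.14), from 1.87 to 3.10 CPM in cortex to 6.41 to 15.2 CPM in hippocampus.

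*Zbtb20* was higher in hippocampus in every mouse. In cortex it was at 15.8, 13.9, 31.2, 23.8 and 28.0 CPM in WT and 18.9, 29.0, 48.7, 51.9 and 38.3 CPM in Ube3aOE mice, the highest values being those of mice 8 and 9. In hippocampus it was at 107, 117, 125, 111 and 135 CPM in WT and 106, 109, 203, 91.0 and 93.4 CPM in Ube3aOE mice. Mouse 8 alone lay far above the others in hippocampus. The log2 difference between regions was 2.03 (SE 0.20, adjusted p = 2.16e-07 by edgeR), 4.10-fold, and was 2.23 without the cortex libraries of mice 8 and 9. By mouse the ratio of hippocampus to cortex ran from 1.75 (mouse 9) to 8.40 (mouse 2).

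*Nr3c2*, the receptor that binds corticosterone with high affinity in hippocampal neurons, had one of the clearest differences. It was at 24.02, 12.8, 19.9, 21.1 and 23.2 CPM in WT cortex and 17.1, 19.1, 25.1, 38.6 and 22.7 CPM in Ube3aOE cortex. In hippocampus it was at 145, 76.0, 134, 111 and 138 CPM in WT and 147, 108, 138, 78.7 and 76.0 CPM in Ube3aOE mice. As with *Emx2*, mice 2, 9 and 10 were the lowest in hippocampus, while every hippocampus library remained above every cortex library. The log2 difference was 2.36 (SE 0.18, adjusted p = 8.96e-09 by edgeR), 5.13-fold, and 2.52 without the cortex libraries of mice 8 and 9. It ranged by mouse from a ratio of 2.04 in mouse 9 to 8.55 in mouse 6. Mice 2 and 9 were also those with neocortical and striatal markers in hippocampus and mouse 10 that with the most thalamic ones, and the part of these markers in the low values was not tested.

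*Pou3f1* was at similar levels in both regions. It ran from 54.8 to 77.96 CPM in WT cortex, 41.2 to 93.2 CPM in Ube3aOE cortex, 75.9 to 101.1 CPM in WT hippocampus and 59.2 to 92.7 CPM in Ube3aOE hippocampus. The regions overlapped, and 7 of 10 mice had the higher level in hippocampus. The log2 difference was 0.15 with a 95% confidence interval from -0.13 to 0.42 (adjusted p = 0.372 by edgeR), which leaves room for a difference of either sign. The lowest cortex values were those of mice 8 (41.2 CPM) and 9 (53.2 CPM), and without these 2 libraries the difference was 0.0029.

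Among the genes of cellular proteins, *Fibcd1* had the largest difference of the 8. In WT cortex it was at 6.52, 9.99, 6.00, 5.57 and 6.65 CPM. In Ube3aOE cortex mice 6, 7 and 10 had 6.26, 5.16 and 9.18 CPM, whereas mice 8 and 9 had 54.6 and 44.0 CPM. In hippocampus the values were 151, 83.9, 114, 101.4 and 116 CPM in WT and 109.5, 81.5, 123, 83.4 and 92.1 CPM in Ube3aOE mice. The regions did not overlap even with mice 8 and 9. The log2 difference was 3.02 (SE 0.37, adjusted p = 3.94e-06 by edgeR) and 3.93 without the cortex libraries of mice 8 and 9. The median ratio of hippocampus to cortex over the 10 mice was 16.6, with 2.25 in mouse 8, 1.90 in mouse 9 and 8.40 to 23.2 in the other 8.

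*Wfs1* was higher in hippocampus in 9 of 10 mice. It was at 36.2, 33.8, 32.1, 32.3 and 35.8 CPM in WT cortex, the narrowest group of this gene with an SD of 1.93 CPM. In Ube3aOE cortex it was at 31.3, 23.6, 73.4, 63.7 and 35.2 CPM, and mice 8 and 9 were again the highest. In hippocampus the values were 79.7, 62.2, 68.7, 71.7 and 97.7 CPM in WT and 90.8, 61.0, 62.7, 104.9 and 82.2 CPM in Ube3aOE mice. Those 2 cortex libraries overlapped the hippocampus, and the exception was mouse 8, with a ratio of 0.854. *Wfs1* differed between regions by 0.98 on the log2 scale (SE 0.17, adjusted p = 0.000144 by edgeR), and 1.28 without the cortex libraries of mice 8 and 9.

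*Man1a* had the smallest difference that passed the test. It was at 12.5 to 19.3 CPM in WT cortex, 17.0 to 22.5 CPM in Ube3aOE cortex, 23.8 to 30.6 CPM in WT hippocampus and 19.0 to 32.6 CPM in Ube3aOE hippocampus. The regions did not overlap within WT but did in Ube3aOE mice. For *Man1a* this came to a log2 difference of 0.54 (SE 0.09, adjusted p = 7.55e-05 by edgeR), 1.45-fold, and 0.57 without the cortex libraries of mice 8 and 9. All 10 mice had the higher level in hippocampus, by ratios of 1.11 to 2.101.

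*Mpped1* was lower in hippocampus in all 10 mice. It was at 819, 857, 866, 872 and 834 CPM in WT cortex and 864, 1011, 617, 676 and 849 CPM in Ube3aOE cortex, where mice 8 and 9 were the lowest. In hippocampus it was at 302, 466, 317, 234 and 292 CPM in WT and 273, 257, 332, 304 and 163 CPM in Ube3aOE mice. WT mouse 2, with neocortical markers in its hippocampus library, was the highest in hippocampus, and mouse 10, with the most thalamic markers, the lowest. The part of these markers in the levels of *Mpped1* was not tested. The log2 difference of *Mpped1* was -1.50 (SE 0.13, adjusted p = 2.88e-08 by edgeR), and -1.59 without the cortex libraries of mice 8 and 9. The ratio of hippocampus to cortex ran from 0.192 in mouse 10 to 0.544 in mouse 2. Although it is used as a field marker, *Mpped1* was the most abundant of the 8 genes in both regions.

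**Figure D2:**
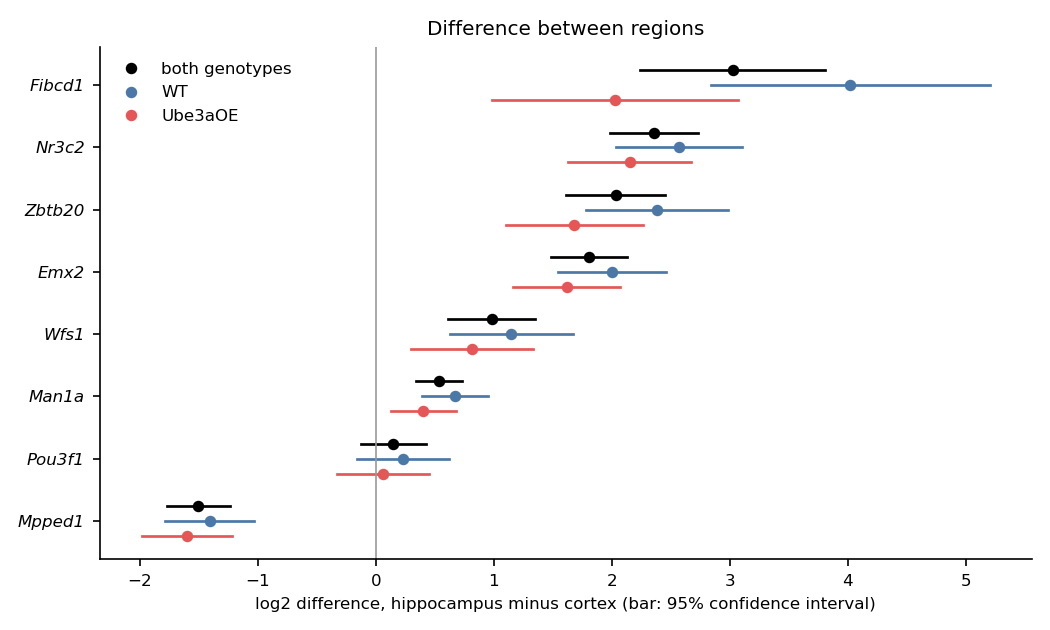
Log2 difference between hippocampus and cortex (x axis, hippocampus minus cortex) for the 8 genes, with 95% confidence intervals, averaged over genotypes (black) and within WT (blue) and Ube3aOE mice (red). *Mpped1* lies below 0 at -1.50, the interval of *Pou3f1* spans 0, and the widest intervals are those of *Fibcd1*, at 4.02 within WT and 2.03 within Ube3aOE mice (3.83 without the cortex libraries of mice 8 and 9).

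Within genotypes, over all libraries, the differences had the same signs. In WT they were 4.02 for *Fibcd1*, 2.57 for *Nr3c2*, 2.39 for *Zbtb20*, 2.00 for *Emx2*, 1.15 for *Wfs1*, 0.67 for *Man1a*, 0.23 for *Pou3f1* and -1.41 for *Mpped1*. In Ube3aOE mice they were 2.03, 2.15, 1.68, 1.62, 0.82, 0.40, 0.06 and -1.60 in the same order. The Ube3aOE values without the cortex libraries of mice 8 and 9 were 3.83, 2.48, 2.06, 1.49, 1.42, 0.47, -0.23 and -1.77, so that *Fibcd1* and *Wfs1* moved most and *Pou3f1*, not called in either case, changed sign. Over all libraries the difference was the smaller, or the more negative, in Ube3aOE mice for all 8 genes (for *Wfs1* it was the larger without those 2 libraries), and none of these changes passed the test given below. In the 4 hippocampus libraries with the fewest markers of other regions (mice 1, 3, 5 and 6) against all cortex libraries, an alternative chosen after seeing the data, the region differences averaged over genotypes were 3.19 for *Fibcd1*, 2.67 for *Nr3c2*, 2.19 for *Emx2*, 1.96 for *Zbtb20*, 1.13 for *Wfs1*, 0.73 for *Man1a* and -1.53 for *Mpped1*, and the same 7 genes passed. In this fit the lone Ube3aOE hippocampus library is assumed to vary like the others, and within Ube3aOE mice *Fibcd1* (2.19, adjusted p = 0.125) and *Wfs1* (0.99, adjusted p = 0.159) no longer passed. Within Ube3aOE mice *Wfs1* also failed the test without mouse 6 (0.66, adjusted p = 0.0870) or mouse 10 (0.73, adjusted p = 0.0740), and *Man1a* without mouse 6 (0.29, adjusted p = 0.148) or mouse 9 (0.39, adjusted p = 0.0501).

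**Figure D3:**
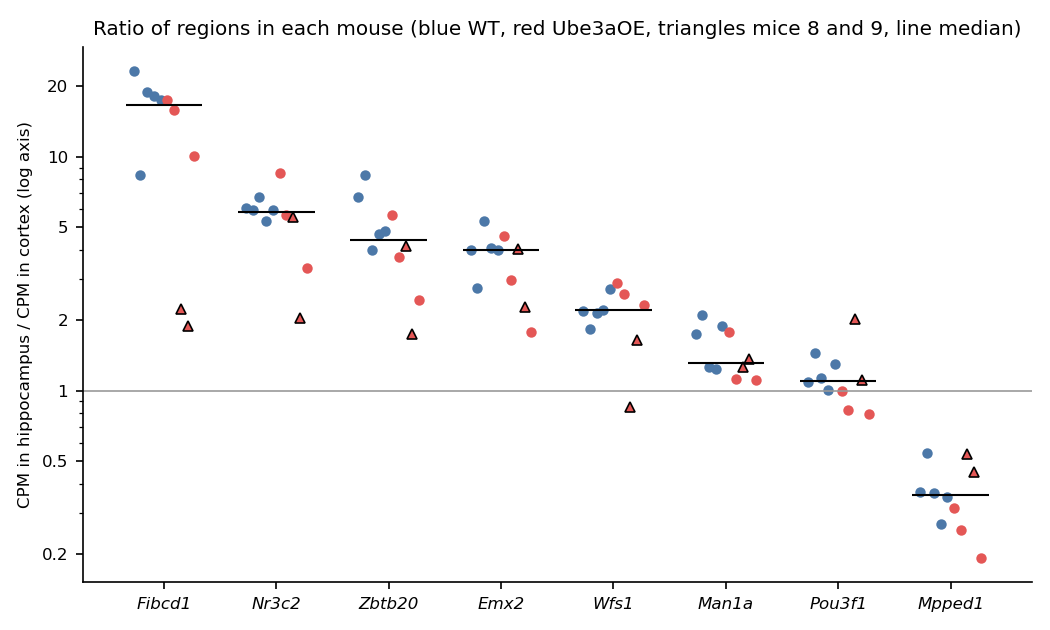
Ratio of CPM in hippocampus to CPM in cortex of the same mouse (log axis) for the 8 genes, blue for WT, red for Ube3aOE, triangles for mice 8 and 9 and lines at the median over 10 mice. The medians run from 16.6 (*Fibcd1*) to 0.358 (*Mpped1*), and the triangles fall far below the other mice in *Fibcd1*.

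Levels of different genes were compared only as CPM per kilobase of exon. In WT hippocampus *Mpped1* had 75.0 ± 20.1 CPM per kilobase (SD, n = 5), above every library of the next gene. *Fibcd1* (23.8 ± 5.21), *Pou3f1* (21.6 ± 2.66), *Wfs1* (20.1 ± 3.61) and *Nr3c2* (18.7 ± 4.32) followed, and each of these overlapped the next, as *Nr3c2* did *Emx2*. *Emx2* had 9.65 ± 2.39, *Zbtb20* 3.87 ± 0.364 and *Man1a* 2.79 ± 0.343 CPM per kilobase, with no overlap between these last 3. The value of *Zbtb20* is a division by 30.73 kb of exons that no single transcript contains.

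The order was another in WT cortex. *Mpped1* (198 ± 5.22 CPM per kilobase), *Pou3f1* (18.3 ± 2.36) and *Wfs1* (8.98 ± 0.510) came first, without overlap. *Nr3c2* (3.12 ± 0.690) and *Emx2* (2.39 ± 0.271) overlapped, as did *Man1a* (1.74 ± 0.285) and *Fibcd1* (1.46 ± 0.369), and *Zbtb20* (0.733 ± 0.245) was the lowest. *Fibcd1* thus stood in second place in WT hippocampus and in seventh in WT cortex. In Ube3aOE hippocampus the same 4 genes as in WT, with *Wfs1* first at 21.2 ± 4.95, lay between *Mpped1* (61.9 ± 14.9) and *Emx2* (7.67 ± 2.74). In Ube3aOE cortex *Fibcd1* was at 5.02 ± 4.97 CPM per kilobase, a spread as large as the mean.

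For context, the other genes of the same pathways were counted in the region test. Beside all counts below, 25.3% of all genes tested were higher in hippocampus and 25.6% lower. Of 17 other markers of hippocampal fields, 12 were higher in hippocampus, 1 lower and 4 not called, with a median log2 difference of 0.95. The largest were *C1ql2* (4.27), *Spink8* (4.04), *Nts* (3.82) and *Prox1* (3.21), although *Spink8*, a CA1 gene, had at most 4 reads in a WT cortex library and 42 to 86 in WT hippocampus, so that its fitted value is imprecise. Of 10 patterning factors, 6 were higher, 2 lower and 2 not called, with a median of 0.51, led by *Dmrt3* (3.98, at 0 to 3 reads in WT cortex), *Lef1* (1.75), *Dmrta2* (1.34) and *Emx1* (-1.10). *Lef1* is also a thalamus marker, and its level reached 48.4 CPM in the Ube3aOE hippocampus. Of 11 neocortical projection neuron factors, 7 were lower, 1 higher (*Zfpm2*, 1.12) and 3 not called, with a median of -0.91, among them *Mef2c* (-3.05), *Rorb* (-2.42) and *Cux2* (-1.99). *Mpped1* shared the sign of this last list. Without the cortex libraries of mice 8 and 9 the counts of these 3 lists were the same, and *Nts* was at 5.01, *Spink8* at 5.31, *C1ql2* at 4.67, *Prox1* at 3.44 and *Dmrt3* at 5.34. The 2 libraries were set apart by field markers such as *Nts* and *Prox1*. Larger differences of such markers without them are thus no separate check.

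The partners and targets of the corticosteroid receptors did not share the difference of *Nr3c2* in size. Of 9 tested, 3 were higher, 4 lower and 2 not called, with a median of -0.09. They ran from *Hsd11b1* (0.63), the enzyme that regenerates corticosterone, and *Zbtb16* (0.35) to *Klf9* (-0.28) and *Sgk1* (-0.27). *Nr3c1*, the glucocorticoid receptor, was at 39.8 ± 3.29 CPM in WT hippocampus and 40.6 ± 7.85 CPM in WT cortex (SD, n = 5), with a log2 difference of -0.04 (SE 0.09). For *Hsd11b2*, which inactivates corticosterone, too few reads were counted for a test. Of 10 genes of endoplasmic reticulum stress, the compartment of wolframin, 2 were higher (*Atf6*, 0.28, and *Eif2ak3*, 0.13), 2 lower (*Atf4*, -0.34, and *Xbp1*, -0.24) and 6 not called, with a median of 0.10. Of 9 N-glycan trimming enzymes, 4 were higher, 1 lower and 4 not called, with a median of 0.07 and with *Man1c1* at 0.25, *Man2a1* at 0.21, *Ganab* at 0.21 and *Mgat1* at -0.21, all smaller than the 0.54 of *Man1a*.

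Close relatives of the 8 genes were counted in the same way, where 25.3% of all genes tested were higher in hippocampus and 25.6% lower. Of 10, *Man1c1* was higher in hippocampus, 5 were lower and 4 were not called, with a median of -0.10. *Pou3f2*, which acts in upper-layer neocortical neurons, was lower by -2.18 (SE 0.14), with 7.97 to 14.5 CPM in WT hippocampus and 43.1 to 61.1 CPM in WT cortex, while *Pou3f1* was not called. *Emx1* differed by -1.10 and *Emx2* by 1.81. *Pou3f3* differed by -0.25.

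Astrocyte markers moved with the region as well: 6 of 7 were higher in hippocampus and *Aldh1l1* was not called, and their summed level was 1347 to 1981 CPM in WT hippocampus, 1402 to 1867 in Ube3aOE hippocampus and 895 to 1130 and 981 to 1173 CPM in WT and Ube3aOE cortex, none of the 7 at 0. The part of astrocyte RNA in the differences of the 8 genes was not tested. Among the hippocampus libraries with markers of other regions, the astrocyte sum was 1347 to 1519 CPM in mice 2, 7, 9 and 10, 1779 CPM in mouse 8 and 1838 CPM in mouse 4, against 1842 to 1981 CPM in mice 1, 3, 5 and 6.

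The second comparison asked whether additional *Ube3a* changed these genes. In hippocampus 0 of 8 passed edgeR's test, where 0.00657% of 15220 genes passed, which is *Ube3a* alone. The unadjusted p was under 0.05 for 0 of the 8 and for 1098 of the 15220 genes. DESeq2 and limma voom also called 0 of 8. The groups overlapped for every gene, with means ± SD (n = 5) of 119 ± 11.2 CPM in WT and 120.5 ± 46.8 CPM in Ube3aOE mice for *Zbtb20*, 113 ± 24.7 and 97.8 ± 17.8 for *Fibcd1*, 121 ± 28.0 and 109.5 ± 32.6 for *Nr3c2*, and 29.0 ± 7.18 and 23.0 ± 8.22 for *Emx2*. The log2 differences lay between -0.33 (*Emx2*, 95% confidence interval -0.91 to 0.26) and 0.08 (*Wfs1*, -0.29 to 0.45). For *Fibcd1* the interval was -0.56 to 0.14 and for *Man1a* -0.35 to 0.25. Differences within these intervals are not excluded by the data.

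In cortex 0 of 8 passed edgeR's test, and DESeq2 and limma voom also called 0, while 0.00669% of 14947 genes passed, again *Ube3a* alone. The unadjusted p was under 0.05 for 2 of the 8 genes, *Fibcd1* and *Zbtb20*, and for 663 of the 14947 genes tested. *Fibcd1* was higher in Ube3aOE cortex by 1.79 on the log2 scale (95% confidence interval 0.12 to 3.46, adjusted p = 0.960 by edgeR), with the genotypes overlapping and only mice 8 and 9, or 2 of 5, far above the WT range. Without these 2 libraries the difference was -0.02. They were left out after their values were seen and are the highest for *Fibcd1*, so this value is no separate check. *Zbtb20* was higher by 0.73 (0.02 to 1.43, adjusted p = 0.960) with them and by 0.34 without them, 3 of 5 Ube3aOE libraries lying above all WT libraries. The other 6 genes differed by -0.08 (*Mpped1*) to 0.42 (*Wfs1*), and *Wfs1* was at -0.19, *Nr3c2* at -0.05 *Emx2* at 0.19, *Pou3f1* at 0.30, *Man1a* at 0.15 and *Mpped1* at 0.09 without the 2 libraries.

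**Figure D4:**
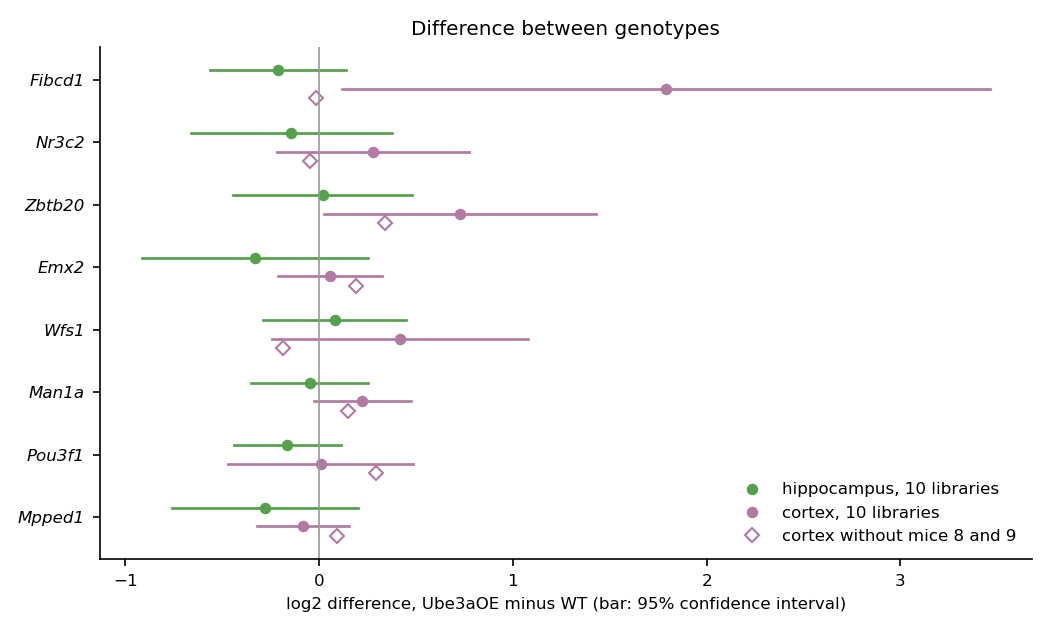
Log2 difference between Ube3aOE and WT (x axis) for the 8 genes in hippocampus (green) and cortex (purple) with 95% confidence intervals, and in cortex without mice 8 and 9 (open diamonds). The *Fibcd1* difference in cortex moves from 1.79 to -0.02 when the 2 libraries are left out. These are the 2 highest cortex libraries for this gene and were chosen after the values were seen.

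In the cortex of mice 8 and 9 the 8 genes did not all go one way. The share of all genes with both libraries outside the range of the others was not counted. Both libraries lay above the other 8 for *Fibcd1*, with a ratio of means of 7.13, *Wfs1* (2.11), *Zbtb20* (2.02) and *Nr3c2* (1.59). Both lay below for *Mpped1* (0.742) and *Pou3f1* (0.617). For *Emx2* (0.845) and *Man1a* (1.20) only 1 of the 2 libraries lay outside the range of the others. Among the other field markers *Nts* (10.9), *Spink8* (6.58), *Fn1* (2.13), *Prox1* (2.00), *Rgs14*, *Necab2*, *Pcp4* and *Grik4* were above. *Amigo2* was below. For the dentate genes *C1ql2*, *Dsp* and *Tdo2* the 2 libraries did not both lie above or below the others. The Cajal-Retzius gene *Trp73* was at 6.44 and 4.63 CPM in mice 8 and 9 against at most 4.19, and its part and that of the other field markers in the values of the 8 genes was not tested.

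**Figure D5:**
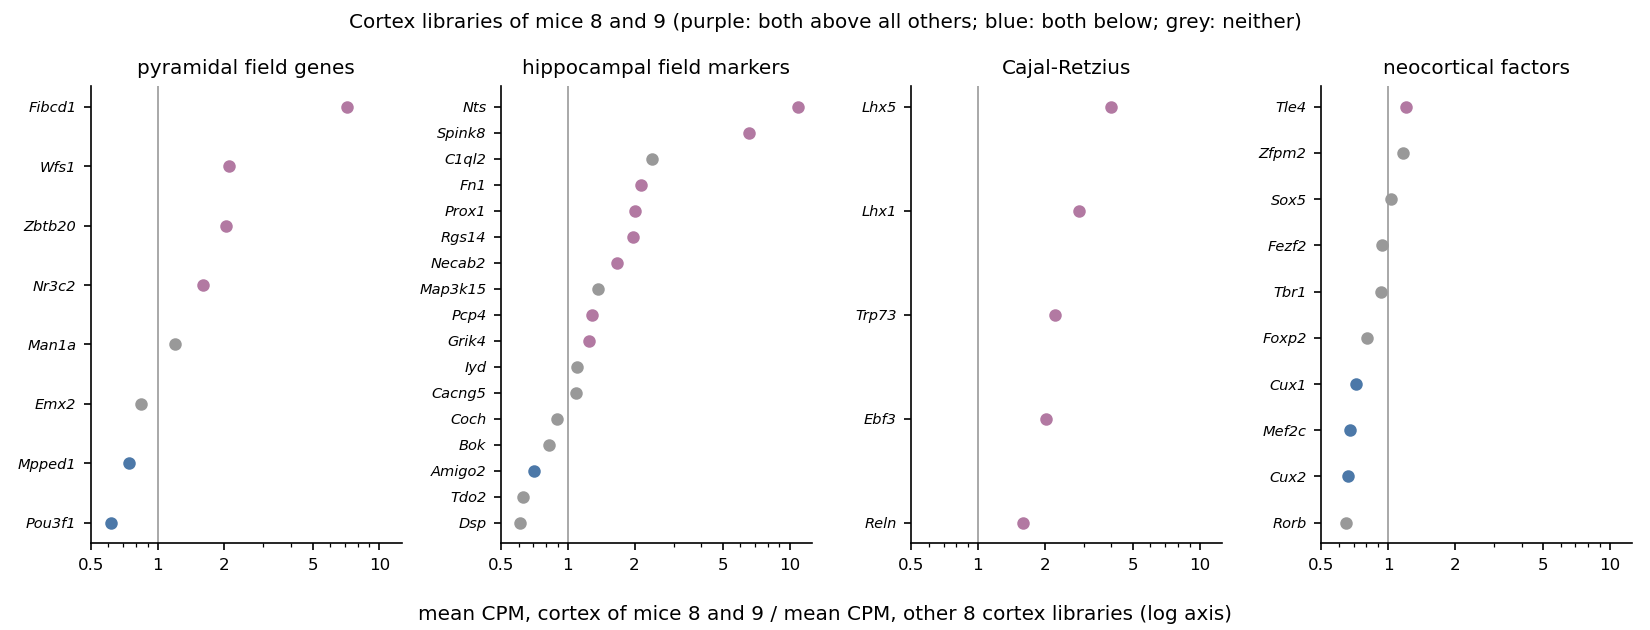
Ratio of the mean CPM in the cortex libraries of mice 8 and 9 to the mean of the other 8 cortex libraries (log axis), for the 8 genes, 17 other hippocampal field markers, 5 Cajal-Retzius genes and 10 of the 11 neocortical factors. Purple marks genes with both libraries above all others, blue both below, grey neither. The share of all genes in each class was not counted. *Nts* (10.9) and *Fibcd1* (7.13) have the highest ratios, and *Pou3f1* (0.617) is among the lowest.

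The interaction of genotype and region, tested over the 20 libraries, was called for 0 of 8 genes by edgeR, DESeq2 and limma voom, and for 0% of the 15661 genes tested, 590 of which had an unadjusted p under 0.05. The unadjusted p was under 0.05 for 1 of the 8, *Fibcd1*, at -1.996 on the log2 scale (95% confidence interval -3.52 to -0.47, adjusted p = 0.997 by edgeR). Without the cortex libraries of mice 8 and 9, the 2 highest cortex libraries for this gene, it was -0.20, which is no separate check. *Zbtb20* followed at -0.70 (-1.52 to 0.11) and was at -0.32 without them.

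The spread within groups differed between the genes. The coefficient of variation was lowest for *Mpped1* (2.64%) and *Wfs1* (5.67%) in WT cortex, *Zbtb20* (9.43%) in WT hippocampus, *Man1a* (10.8%) in Ube3aOE cortex and *Emx2* (11.3%) in WT cortex. It was highest for *Fibcd1* (99.0%) and *Wfs1* (47.9%) in Ube3aOE cortex, the group that holds the libraries of mice 8 and 9, and for *Zbtb20* (38.9%) in Ube3aOE hippocampus, with mouse 8 at 203 CPM.

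To describe how the levels varied together, the mean of each of the 4 groups was taken out of log2 CPM, and the 2 genes with the highest Pearson's r over the 20 libraries were listed for each of the 8. The points share libraries, depth and dissection. Each r was picked as 1 of the 2 highest over 10076 genes with at least 10 CPM on average. A high value thus follows in part from the search alone. The closest were *Sla* to *Mpped1* (r = 0.98), *Dgkg* to *Fibcd1* (0.96), *Tspan5* to *Pou3f1* (0.95), *Cacna2d3* to *Wfs1* (0.93), *Zdhhc17* to *Man1a* (0.91), *Nf2* to *Emx2* (0.91), *Shisa6* to *Nr3c2* (0.88) and *Trim23* to *Zbtb20* (0.86). The second were *Klhl23* (0.91), *Enox2* (0.94), *Pantr1* (0.92), *Rgs14* (0.90), *Pcmtd2* (0.81), *Nsmf* (0.90), *Fam189a1* (0.88) and *AI597479* (0.84), in the same order. *Rgs14* is itself a CA2 marker. Without the cortex libraries of mice 8 and 9, *Sla* (0.98), *Zdhhc17* (0.91) and *Tspan5* (0.87) kept the first place, and the other 5 did not. *Dgkg* was at 0.80 (place 2), *Trim23* at 0.81 (place 4), *Nf2* at 0.91 (place 5), *Shisa6* at 0.90 (place 6) and *Cacna2d3* at 0.78 (place 9). The 8 second genes then stood in places 8 to 22, with *Rgs14* at 0.75 in place 22 and *Enox2* at 0.71 in place 17.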

How the data were processed

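RNA of cortex and hippocampus of 5 WT and 5 Ube3aOE mice was sequenced as stranded mRNA libraries. The authors deposited raw read counts per gene, 1 table per library, made with HISAT2 2.1.0 and HTSeq 0.11.2 on GRCm38 per the submitters' processing notes; the annotation and the strand setting are not given in the sources used here. The 5 lines of reads not counted on a gene were left out of library sizes and tests (69.7% to 81.2% of reads were on genes). Of the gene identifiers, 47224 of 47729 matched GENCODE M21, which gave positions and exon lengths.

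Differences were tested on these counts by edgeR 4.0.16 under R 4.3.3. TMM scaled the libraries, filterByExpr removed low genes, and the robust quasi-likelihood F test was adjusted over all genes tested by the method of Benjamini and Hochberg, with a threshold of 0.05. Regions and the interaction used all 20 libraries in 4 groups, and genotypes the 10 libraries of a tissue. Limma 3.58.1 (voom) and DESeq2 1.42.0, no filter, DESeq2's size factors, the labelled sex, a joint fit, the mouse as a replicate block and each mouse left out were the alternatives. Leaving out the cortex libraries of mice 8 and 9, or the 6 hippocampus libraries with markers of other regions, was chosen after seeing the data. The fit was tested on simulated data. Summaries used pandas 2.3.3 (Python 3.11.15), and matplotlib 3.10.9 drew the plots.

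A hippocampus and a cortex library with the same number came from the same mouse. With group means taken out, the 2 libraries of a mouse correlated over 10077 genes with a median r of 0.361 (lowest 0.186), above 0.1 in 10 of 10 mice. The labels name separate mice, so p-values of the genotype tests within a tissue rest on the spread between mice. The main region and interaction fits left out the mouse and treated the 2 libraries of a mouse as independent. Only the fit with the mouse as a replicate block took the pairing into account. The depth gave at least 80 reads for each of the 8 genes in each library. The 8 genes and the lists were chosen with earlier results of these data known. Named genes are the 8, *Ube3a*, up to 4 called genes per list with the largest region difference, and the 2 genes most like each of the 8; other names were chosen after their values were seen. No library was left out of the main fits. Some genes of the lists are counted but not reported here by name.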

Additional observations from a re-analysis of the deposited data

Results flagged for a closer look

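A library was flagged where its gap to the nearest of the 5 libraries of its group was over 0.71 of the range of the group. This held in 4 of 32 groups of 5 libraries (8 genes, 4 groups each), where chance at 1 in 20 gives 1.6. *Zbtb20* was at 203 CPM in the hippocampus of Ube3aOE mouse 8, against 91.0 to 109 CPM in the other 4. *Pou3f1* was at 101.1 CPM in the hippocampus of WT mouse 5, against 75.9 to 81.7 CPM, and at 54.8 CPM in the cortex of WT mouse 2, against 71.6 to 77.96 CPM. *Fibcd1* was at 9.99 CPM in the cortex of WT mouse 2, against 5.57 to 6.65 CPM. The cortex library of WT mouse 2 also had the lowest share of reads on genes, 69.7%. The 2 cortex libraries of mice 8 and 9 were not flagged, since a pair of outlying libraries leaves no single gap of that size.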

How the results depend on the processing

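The counts of 7 of 8 genes called between regions and 0 of 8 called for genotype in hippocampus, for genotype in cortex and for the interaction were the same under every alternative run. In the paired fit, with the mouse as a replicate block, these were 7 for the regions and 0 for the interaction, and no call changed. The values below changed sign, none of them being past the threshold on either side, and the cause was not tested. Without the cortex libraries of mice 8 and 9, *Pou3f1* between regions in Ube3aOE mice was -0.227 on the log2 scale, the interaction of *Wfs1* 0.266, and the genotype difference in cortex -0.0476 for *Nr3c2*, -0.185 for *Wfs1*, -0.0168 for *Fibcd1* and 0.0909 for *Mpped1*. Without the 6 hippocampus libraries with markers of other regions, the interaction of *Pou3f1* was 0.0865, and the genotype difference in hippocampus -0.203 for *Zbtb20*, 0.0393 for *Emx2*, 0.0863 for *Pou3f1*, 0.0726 for *Nr3c2* and 0.203 for *Man1a*. With limma voom *Pou3f1* was -0.0573 in cortex and *Zbtb20* -0.0441 in hippocampus, and, when the fit included the sex given in the labels, *Zbtb20* was -0.0367 in hippocampus. With each mouse left out in turn, *Pou3f1* between regions in Ube3aOE mice ran from -0.125 (without mouse 8) to 0.163, and the genotype difference in cortex from -0.00775 to 0.125 for *Emx2* and from -0.111 to 0.149 for *Pou3f1*. In hippocampus it ran from -0.244 (without mouse 8) to 0.106 for *Zbtb20*, from -0.0334 to 0.187 for *Wfs1* and from -0.135 to 0.0470 for *Man1a*. Over all genes, the genotype test called 1 gene in cortex and 4 by DESeq2, and 1 in hippocampus against 2 with the labelled sex and 2 without the 6 libraries. The region test within Ube3aOE mice called 5193 genes and 2520 without the 6 libraries, which leave a single Ube3aOE hippocampus library. In cortex *Emx2* had 87 to 137 reads a library and *Fibcd1* 80 to 145 outside mice 8 and 9, which limits the precision there. The astrocyte list without the cortex libraries of mice 8 and 9 had 6 higher and 1 lower, *Aldh1l1* now being called, and the N-glycan list 3 higher.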

Other observations

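Genes of Cajal-Retzius cells, the reelin-secreting neurons of the marginal zone that persist along the hippocampal fissure, were higher in hippocampus for 4 of 5, with log2 differences of 2.19 for *Lhx1*, 2.03 for *Lhx5*, 1.91 for *Trp73* and 1.78 for *Ebf3* by edgeR. *Reln* itself, which cortical interneurons also express, differed by -0.21 (SE 0.21) and did not pass. Without the cortex libraries of mice 8 and 9 the same count passed, and *Reln* was at -0.06. Of 6 genes of the oligodendrocyte lineage 4 were higher in hippocampus, *Sox10* (0.50), *Olig2* (0.48), *Pdgfra* (0.27) and *Olig1* (0.26), and the myelin gene *Mbp* was among those not called. Without these 2 libraries *Olig1* (0.16) no longer passed, which leaves 3 of 6. Of the endothelial and the blood genes, 0 of 4 each passed. Among markers of neighbouring regions, 5 of 6 tested choroid plexus genes and 4 of 5 tested thalamus genes were higher in hippocampus, and the striatum genes divided into 2 higher, 2 lower and 3 not called, or 2, 1 and 4 without the 2 libraries. These names were chosen after their values were seen. No gene of any list was called between genotypes in either tissue by edgeR.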
